A study of Homo sapiens and Mus musculus with 24 samples.

Results

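Ion channel genes were followed in mouse cells that were either left untreated or irradiated with UV before their RNA was extracted. The members are the protein-coding mouse genes whose symbol begins with Scn and a digit, Kcn or Cacn, which gave 134 of the 53715 genes counted in the mouse samples (21890 of them protein-coding). Another 5 genes with such symbols are not protein-coding and were left out. The symbols also take in channels that are not gated by voltage, among them inward rectifiers, K2P leak channels and small-conductance calcium-activated channels, and auxiliary subunits that form no pore, so these are channel gene families rather than voltage-gated channels alone. By role there are 10 sodium channel alpha and 4 beta subunits, 10 calcium channel alpha1 subunits, 8 calcium channel beta or alpha2delta subunits, 8 gamma subunits, 40 Kv pore and 13 Kv auxiliary subunits, 12 subunits of calcium- or sodium-activated potassium channels, 15 inward rectifiers and 14 K2P channels.

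Neuro2a, a mouse neuroblastoma line, and HippCulture, a primary culture of hippocampal neurons from E16.5 mouse embryos (strain C57/BL6NCr), were each sequenced as 3 nonirradiated and 3 UV-irradiated replicates. No genotype or treatment other than irradiation set the groups of a cell type apart. HippCulture was treated with AraC against dividing cells, and Neuro2a is a single line. UV links RNA covalently to the proteins that touch it, and RNA linked to protein is lost from the aqueous phase of a phenol extraction. The irradiated libraries hence hold the RNA that could still be recovered and copied into cDNA, and a lower value in them is a lower count relative to other RNAs. Recovery from the aqueous phase, reverse transcription past UV lesions and the amount of RNA in the cells cannot be told apart in these counts. The study describes its replicates as biological triplicates, while the labels do not say which cultures or animals they came from, so p-values measure the spread between these samples.

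The mouse samples held 6910907 to 9163323 counts on genes. The 10 genes with the most counts took 21.5% to 32.4% of a nonirradiated library and 40.3% to 52.4% of an irradiated one. Channel members took 0.084% to 0.0886% of the counts in nonirradiated Neuro2a and 0.0275% to 0.0317% in irradiated Neuro2a. In HippCulture they took 0.447% to 0.51% and 0.24% to 0.293%. The labels were checked against marker genes. Hand2 and Phox2a, transcription factors of sympathetic neurons, stood at 47 ± 1.02 and 13 ± 2.47 RPKM (counts scaled to library size and kilobases of exon; mean ± SD, n = 3) in nonirradiated Neuro2a and at 0.0174 ± 0.0302 and 0.0827 ± 0.0958 in HippCulture. Slc17a7, a vesicular glutamate transporter gene, stood at 27.9 ± 0.521 RPKM in HippCulture and 0.0382 ± 0.0503 in Neuro2a. HippCulture also held mRNA of astrocytes, with Slc1a3 at 56.6 ± 0.0603 RPKM and Gfap at 19.7 ± 0.695.

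A voltage-gated sodium or calcium channel is built around a single large alpha subunit that forms the pore, the voltage sensors and the gate, while beta, alpha2delta and gamma subunits modify its gating or carry it to the membrane. Kv channels assemble from smaller pore subunits with partners such as the Kvbeta proteins and the KChIPs. In neurons sodium channels start and carry the action potential, calcium channels couple it to transmitter release, and potassium channels end it and set the resting potential. Pumilio proteins, which repress mRNAs by binding their 3′ untranslated region (UTR), are known to act on sodium channel mRNAs.

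Members of the sodium channel alpha family carry the letters of a Pumilio element in their 3′ UTR, and these stretches are shown because the 5 alpha subunit genes that hold them were each called lower after irradiation in Neuro2a. The letters TGTANATA, with N as any base, were searched on the mRNA strand only, in the annotated 3′ UTR of the transcript with the longest coding sequence. Of the 10 sodium channel alpha genes, Scn1a, Scn2a, Scn3a, Scn8a and Scn9a held the letters, with 4, 5, 3, 3 and 5 matches in 3′ UTRs of 2107, 2621, 3442, 5253 and 3341 bases. Scn4a, Scn7a, Scn10a and Scn11a held none, in 472 to 2076 bases. Of the beta subunits, Scn2b held 2 matches in 3769 bases, and Scn3b and Scn4b held none in 3094 and 3651 bases. The letters occur in 20.5% of 21575 protein-coding 3′ UTRs and in 26.1% of the 134 channel 3′ UTRs. Among 3′ UTRs within 20% of the length of those of Scn1a, Scn2a, Scn3a, Scn8a and Scn9a they occur in 34.9%, 40.6%, 48.1%, 63.5% and 47.4%. For each of the 5 genes the match nearest the start of the 3′ UTR with A at the free position is printed, 5′ to 3′ on the mRNA strand in GRCm38 (mm10), with the match in capitals.
Scn1a: gctatttattaTGTAAATAgtcattttact
Scn2a: aaagtctgcttTGTAAATAgtaattttacc
Scn3a: accctctgttaTGTAAATAgttattttatc
Scn8a: gcatgccttttTGTAAATAcaaattactaa
Scn9a: ttggaattcgaTGTAAATAtttcacctgtg
These 3′ UTR windows lie at chr2:66271876-66271905 (minus strand) for Scn1a, chr2:65765960-65765989 (plus) for Scn2a, chr2:65459576-65459605 (minus) for Scn3a, chr15:101042923-101042952 (plus) for Scn8a and chr2:66482985-66483014 (minus) for Scn9a. Of the 30 bases of a window, 8 are the match, which is the same in every window by choice. With the match counted, 19 of 30 bases were the same in all 3 of Scn1a, Scn2a and Scn3a. Scn8a shared 15, 16 and 15 of 30 bases with Scn1a, Scn2a and Scn3a, and Scn9a shared 12, 13 and 14. The least alike pair was Scn8a and Scn9a, with 9 of 30. A match is a run of letters and not a shown binding site.

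Before irradiation, most channel mRNAs were higher in HippCulture than in Neuro2a. Of the 111 members tested (mean CPM, the count scaled to library size, of at least 0.5 in the nonirradiated samples), 91 were higher in HippCulture and 12 higher in Neuro2a at an adjusted p under 0.05 (edgeR), where 41.3% of all 19367 genes tested were called higher in HippCulture and 39.3% lower. The median member differed by 4.14 on the log2 scale (HippCulture over Neuro2a) and the median gene by 0.02. The mean CPM was taken over both cell types together, so a member could enter through 1 of them alone. With 0.5 CPM required in both, 45 of 59 members were higher in HippCulture and 6 lower, with a median of 1.85. A total of 87 members reached 1 RPKM in HippCulture and 31 in Neuro2a, and 25 and 0 reached 10 RPKM. A tumour line was set against a primary culture here, so cell type, culture and strain cannot be told apart.

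In HippCulture the highest channel mRNAs per length were those of sodium channels. Scn3b, a beta subunit, stood at 32.6, 31.2 and 34 RPKM in the 3 nonirradiated replicates. Scn2a, the alpha subunit of the early axon initial segment, stood at 28.4, 25.2 and 28.9. Cacna1b, the alpha1 subunit of the N-type calcium channel that serves transmitter release, followed at 27.1, 25.9 and 26.7 RPKM. The ranges of Scn2a and Cacna1b overlapped, and Scn3b lay above both. Among the next in RPKM were Cacnb3, a calcium channel beta subunit, at 22.2 ± 1.01, Kcna6, a Kv pore subunit that shares 2355 of its 5945 exon bases with another annotated gene, at 20.2 ± 1.17, and Kcnj4, an inward rectifier, at 17.3 ± 4.01. Kcnq5, an M current subunit, at 16.1 ± 0.419 and Kcnk10, a K2P channel, at 15.9 ± 0.781 lay within each other's spread.

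Neuro2a had its own leading channels. Kcnh2, the gene of the HERG potassium channel, stood at 9.22, 9.31 and 10.1 RPKM against 2.26, 2.57 and 2.66 in HippCulture. Scn9a, a sodium channel alpha subunit of sensory and sympathetic neurons, stood at 7.74, 8.11 and 8.96 against 0.116, 0.144 and 0.16. Both were higher in every Neuro2a than in every HippCulture sample, Kcnh2 with a log2 difference (HippCulture over Neuro2a) of −1.93 ± 0.11 (SE; adjusted p = 2.8e-11) and Scn9a with −5.88 ± 0.14 (adjusted p = 4.5e-16). Cacnb3 (8.66 ± 0.954), Kcnab2 (8.07 ± 0.329), a Kvbeta subunit, and Cacna1b (7.38 ± 0.108) lay close behind in RPKM, followed by Cacng7, Scn3b and Kcnh4 at 4.69, 4.47 and 3.74. Of these, Kcnab2 did not differ between the cell types beyond the spread (log2 difference 0.06 ± 0.09, adjusted p = 0.55).

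**Figure D1:**
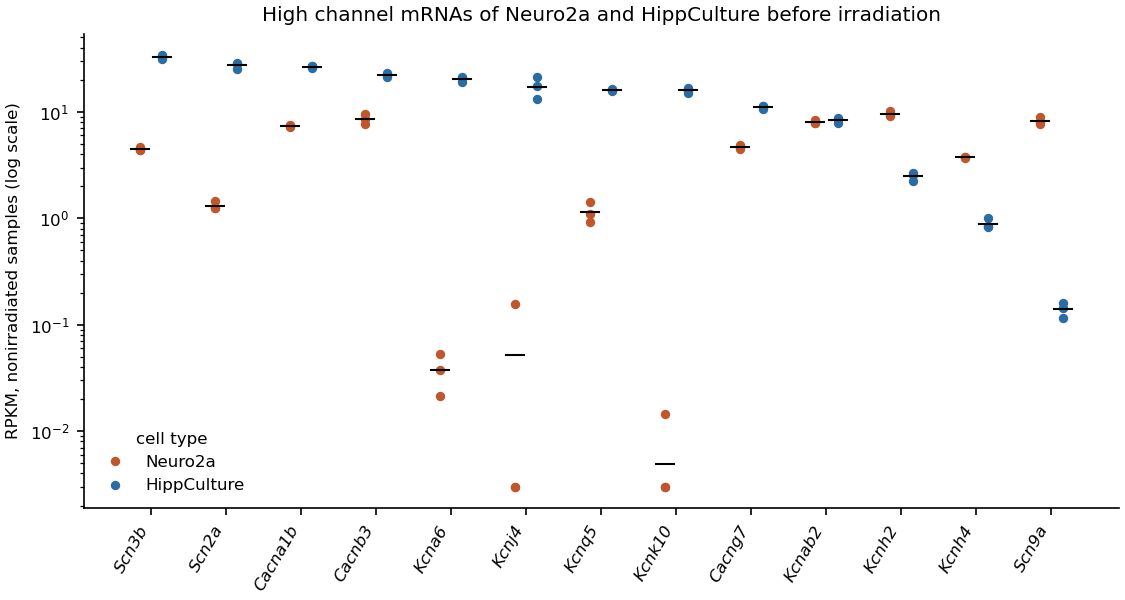
Levels of 13 members that were among the 10 highest in Neuro2a or in HippCulture, in RPKM on a log scale, with a point for each nonirradiated replicate (Neuro2a red, HippCulture blue) and a bar at the mean; replicates at 0 are drawn near the foot of the axis. Scn9a, Kcnh2 and Kcnh4 lie higher in Neuro2a, Kcnab2 overlaps, and the others lie higher in HippCulture.

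Several of the other members higher in Neuro2a are known from muscle or blood cells, and they were low. Scn4a, the skeletal muscle sodium channel, had 35 counts over the 3 Neuro2a libraries and 1 over those of HippCulture, a ratio of 31.5 after scaling (95% counting interval 5.29 to 1279). Kcng4, a modifier subunit, had 38 counts against 1 (ratio 34.2, 5.78 to 1385). Kcnn4, a calcium-activated channel of blood cells, had 27 against 1 (24.3, 4 to 994) and Kcna7 24 against 1 (21.6, 3.52 to 888). Cacna1s, the skeletal muscle calcium channel, had 57 against 4, and shares 1309 of 6550 exon bases with another gene. Kcnh4, Kcnk3, Kcnj13 and Cacng3 were also among the 12. Cacng3, a gamma subunit that attends AMPA receptors, gave a log2 difference of −0.62 ± 0.25 (adjusted p = 0.034), and missed the threshold without Neuro2a replicate 1 (−0.37, adjusted p = 0.19) or 3 (0.068), or HippCulture replicate 1, 2 or 3 (0.08, 0.057 and 0.15).

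Several neuronal channels were close to absent from Neuro2a. No count fell on Kcna1, Kcnh7, Kcnt2, Kcnv1, Kcnk12, Kcne1l or Kcns3 in the 3 nonirradiated Neuro2a libraries, so that with 3 counts over the group as a floor they were at least 300.1-, 321-, 232-, 143-, 111-, 27.8- and 23.7-fold higher in HippCulture. Cacna2d1, the alpha2delta subunit that binds gabapentin, had 1 count against 3768 (ratio 4188, 95% counting interval 751 to 165479), and Kcnk10 had 1 against 3295 (ratio 3663, 657 to 144712). Intervals and floors cover counting error only. Setting the 7 members at 0 to their bounds left the median at 4.14.

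After irradiation, 19 of the 68 members tested in Neuro2a (mean of at least 0.5 CPM in its nonirradiated samples) were lower and 7 higher, beside 33.0% of all 17425 genes tested called lower and 28.9% called higher. In HippCulture 39 of 106 members were lower and 22 higher, beside 25.9% and 26.1% of 18488 genes. The share lower was thus 27.9% of members in Neuro2a and 36.8% in HippCulture, and the share higher 10.3% and 20.8%. Genes entered through the nonirradiated samples alone, so one below 0.5 CPM before irradiation and above it after was not tested. Near that limit this favours calls of lower over calls of higher, for members and for all genes. The median log2 fold change (irradiated over nonirradiated) was −0.40 for members and −0.03 for all protein-coding genes in Neuro2a, and −0.12 and 0.05 in HippCulture. Over all genes tested, coding or not, the median was −0.14 in Neuro2a and −0.04 in HippCulture. The groups did not overlap for 19 of 19 members called lower and 7 of 7 called higher in Neuro2a, and for 38 of 39 and 21 of 22 in HippCulture, much as over all genes called, where 98.0% and 96.4% did not overlap in Neuro2a and 96.6% and 96.1% in HippCulture. Of the 59 members tested in both cell types, 13 were called lower in both, 6 higher in both and 0 in opposite directions (22.0%, 10.2% and 0%), beside 21.4%, 23.7% and 0.628% of the 14973 genes tested in both. The fits behind these counts took the samples as unpaired. With the replicate number as a block, Neuro2a gained 8 calls and lost that on Kcnk9, and HippCulture gained 3.

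All these changes are relative to the TMM scale, which sets most genes near 0. With library totals alone the median gene moved by −1.18 in Neuro2a and −0.54 in HippCulture, 0 of 68 and 3 of 106 members were higher (Kcnmb4 and Kcnip3 among those of HippCulture), and 47 and 58 were lower. Each rise named below is therefore a rise relative to the middle of the genes, and its value with library totals is given beside it for the members whose fits were repeated. A further 47 members were tested in HippCulture alone, 9 in Neuro2a alone and 19 in neither. Nearest the limit in Neuro2a, Scn7a (0.528 CPM) and Kcnip2 (0.541) were tested, and Kcnq3 (0.477) and Cacna1f (0.476) were not. In HippCulture Kcnj13 (0.539) and Kcnk7 (0.547) were tested, and Kcnk5 (0.499) and Scn11a (0.401) were not. The study irradiated the cells on ice and purified their RNA with TRIzol. In these bulk samples fewer cells of a type, less RNA per cell and lower recovery of a marker mRNA cannot be told apart. Markers of a single list moved apart. Among astrocyte markers in HippCulture, Gfap gave 1.03 ± 0.08 and Slc1a2 −0.51 ± 0.08. Among neuron markers in Neuro2a, Stmn2 gave 1.86 ± 0.14 and Map2 −1.76 ± 0.11. In HippCulture the summed astrocyte markers went from 1106 to 1121 CPM in the nonirradiated replicates to 1294 to 1311 in the irradiated ones (4 of 7 called higher, 1 lower, none at 0), and the 5 GABAergic markers from 166 to 187 CPM to 114 to 131 (2 of 5 lower, none at 0). The 8 neuron markers went from 3364 to 3672 CPM to 3078 to 3218 (3 lower, 4 higher, none at 0) in HippCulture and from 672 to 809 CPM to 1024 to 1326 in Neuro2a (3 lower and 1 higher of 6 tested). In Neuro2a the astrocyte list summed to 40.8 to 66.5 CPM and then 85.9 to 146 (1 of 2 tested higher), with Aldoc, a glycolytic enzyme gene, at a mean of 23 RPKM before irradiation and each other gene of the list at 0.376 or below. The part of these in the channel values was not tested.

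**Figure D2:**
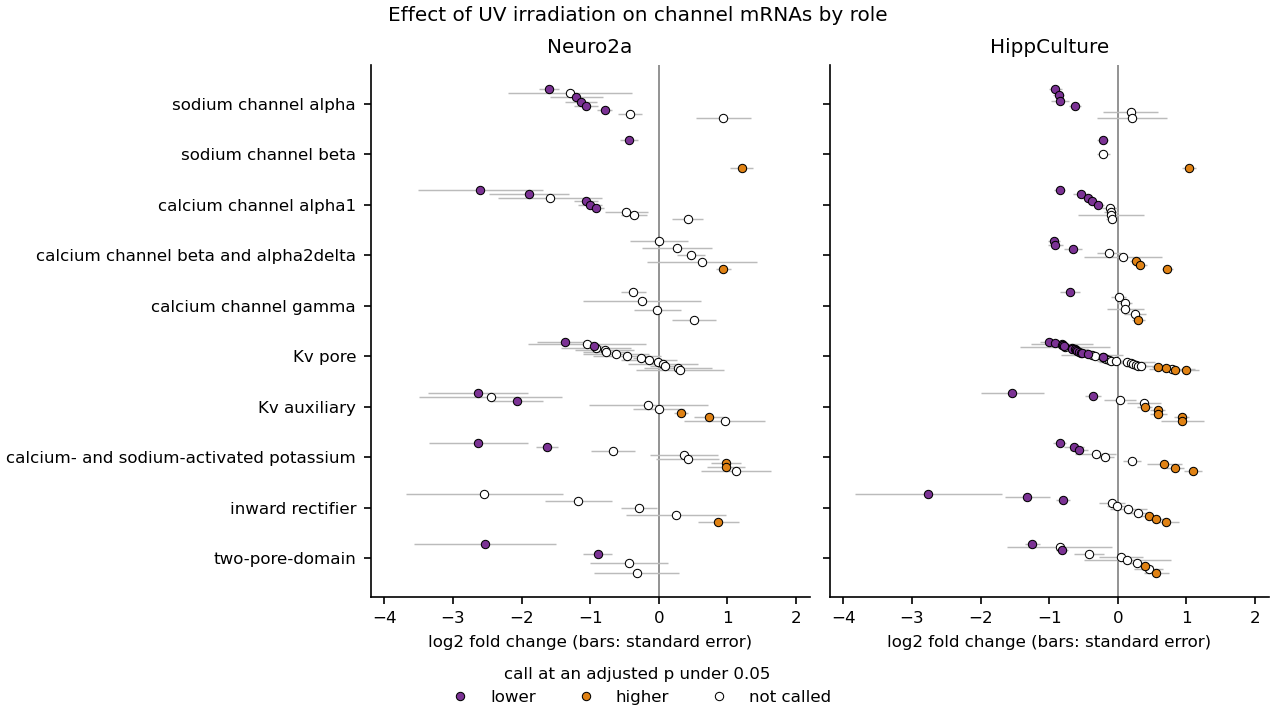
Log2 fold change after UV irradiation (irradiated over nonirradiated, bars are standard errors) of each tested member, by role, in Neuro2a (left) and HippCulture (right), with members called lower in purple, higher in orange and not called in white. No sodium channel alpha and no calcium channel alpha1 subunit was called higher in either cell type, while Kv auxiliary and calcium-activated channel subunits were called in both directions; with library totals alone the median gene shifts by −1.18 in Neuro2a and −0.54 in HippCulture, and of the orange points 3 in HippCulture stay called.

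Most sodium channel alpha mRNAs tested were lower after irradiation. In Neuro2a 5 of 8 tested were called lower and 0 higher (median −1.09), and in HippCulture 4 of 6 and 0 (median −0.73). Scn2a went from 284, 253 and 287 CPM to 156, 144 and 155 in HippCulture, a log2 fold change of −0.86 ± 0.08 (SE; adjusted p = 3.7e-08), and from 11, 12.7 and 11 CPM to 4.65, 5.34 and 6.77 in Neuro2a (−1.06 ± 0.18, adjusted p = 1.7e-04). Every irradiated replicate lay below every nonirradiated one. Scn3a, prominent in embryonic brain, went from 105, 99.2 and 105 CPM to 59.7, 51.6 and 53.2 in HippCulture (−0.91 ± 0.09, adjusted p = 2.6e-08) and from 7.08, 10.3 and 8.75 CPM to 3.16, 4.31 and 4.51 in Neuro2a (−1.13 ± 0.23, adjusted p = 6.2e-04). Scn8a, of the mature node of Ranvier, went from 37.4, 31.3 and 34.8 CPM to 20.8, 19.9 and 19.1 in Neuro2a (−0.79 ± 0.11, adjusted p = 3.9e-05) and from 105, 92.5 and 93.1 CPM to 69.1, 59.4 and 60.8 in HippCulture (−0.62 ± 0.09, adjusted p = 7.0e-06), again without overlap. These are 3 of the genes whose Pumilio letters are printed above.

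Scn1a, the main alpha subunit of inhibitory interneurons, went from 26.8, 31.6 and 24.3 CPM to a mean of 15.3 ± 1.58 (SD, n = 3), each below the lowest nonirradiated value, in HippCulture (−0.84 ± 0.13, adjusted p = 1.4e-05). Of the 5 GABAergic markers there, Gad1 (−0.91 ± 0.08) and Gad2 (−0.88 ± 0.14) were lower, and Slc32a1 (0.21 ± 0.13), Dlx2 (0.42 ± 0.44) and Dlx1 (−0.03 ± 0.15) were not called. In Neuro2a Scn1a went from 3.42, 5.24 and 5.09 CPM to 0.558, 3.29 and 2.26 (−1.20 ± 0.39, adjusted p = 0.016). That call was lost without irradiated replicate 1 (−0.74, adjusted p = 0.055) or nonirradiated replicate 2 (−1.07, adjusted p = 0.054). Scn9a, the leading alpha subunit of Neuro2a, went from 68.5, 72 and 79.5 CPM to 18.2, 25.9 and 28.5 there (−1.60 ± 0.14, adjusted p = 2.5e-07), so that the irradiated replicates lay far below the others. In HippCulture, with 42 counts over the nonirradiated libraries, Scn9a gave 0.20 ± 0.51 (adjusted p = 0.77) and its groups overlapped. Scn7a (−1.29 ± 0.90, adjusted p = 0.23) and Scn4a (0.94 ± 0.40, adjusted p = 0.059) were not called in Neuro2a, the latter with 1.11 and an adjusted p of 0.038 without irradiated replicate 1.

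Of the beta subunits, which assemble with these alpha subunits, Scn3b fell from 16.6, 17.6 and 16.6 CPM to 12.3, 12.5 and 12.9 in Neuro2a (−0.43 ± 0.13, adjusted p = 0.0088) and from 139.8, 134 and 145 CPM to 120.3, 119 and 119.5 in HippCulture (−0.22 ± 0.08, adjusted p = 0.021). In HippCulture this call was lost without irradiated replicate 3 (−0.22, adjusted p = 0.064), nonirradiated replicate 1 (−0.19, adjusted p = 0.12) or nonirradiated replicate 3 (−0.15, adjusted p = 0.23). Scn2b stood at 34.4, 32.4 and 36.7 CPM before and 31.7, 29.4 and 28.4 after irradiation in HippCulture and was not called (−0.21 ± 0.10, adjusted p = 0.085).

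**Figure D3:**
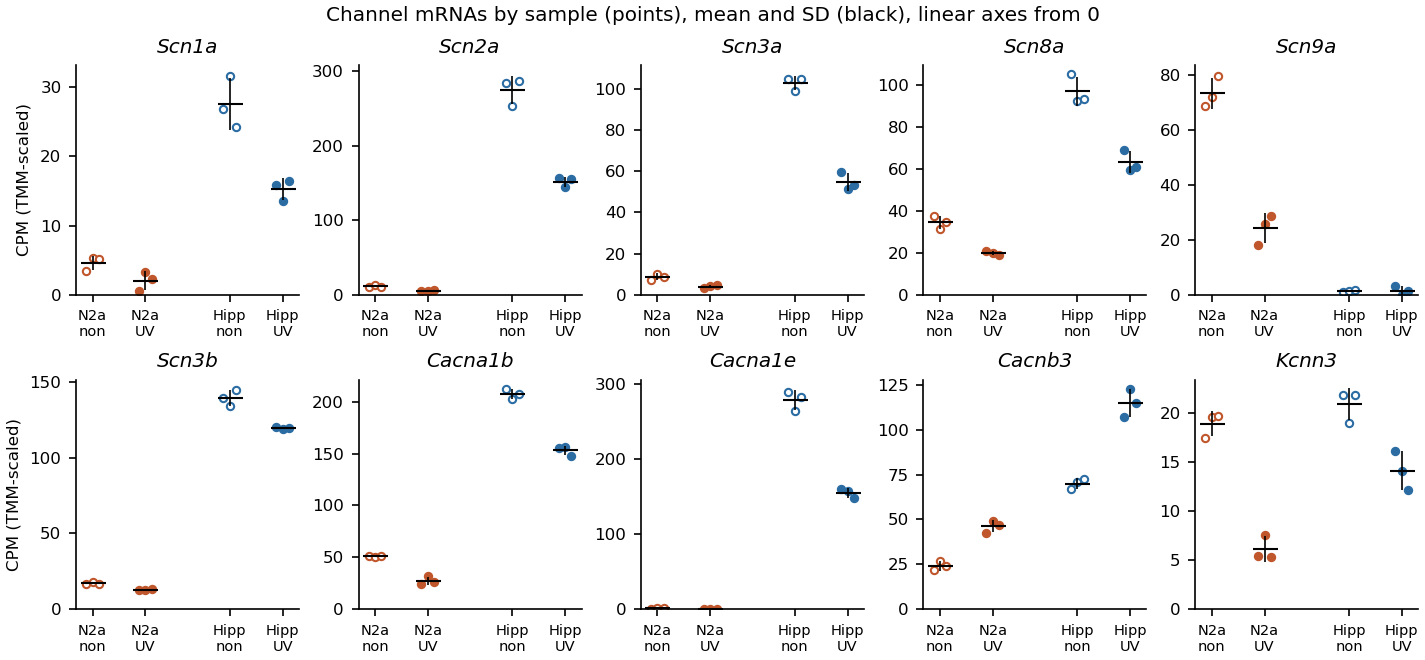
CPM on the TMM scale of 10 members in each replicate of nonirradiated (open) and irradiated (filled) Neuro2a (N2a, red) and HippCulture (Hipp, blue), with the mean and SD in black and linear axes from 0. Cacnb3 lies higher in the irradiated samples of both cell types (with library totals alone it turned to −0.26 on the log2 scale in Neuro2a), Scn9a lies lower in those of Neuro2a, and the other 8 lie lower in both.

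Of the calcium channel alpha1 mRNAs, 5 of 9 tested were lower in each cell type and 0 higher, with medians of −1.0 in Neuro2a and −0.29 in HippCulture. The N-type Cacna1b went from 51.5, 50.1 and 51.1 CPM to 24.4, 31.6 and 25.6 in Neuro2a (−0.91 ± 0.11, adjusted p = 7.8e-06) and from 212, 203 and 207 CPM to 155, 156 and 148 in HippCulture (−0.44 ± 0.08, adjusted p = 7.0e-05). The L-type Cacna1c, with 21191 exon bases, went from 17.9, 13.8 and 17.1 CPM to 9.3, 7.39 and 6.56 in Neuro2a (−1.06 ± 0.17, adjusted p = 1.2e-04) and from 100.3, 102 and 106 CPM to 84.1, 79.8 and 74.6 in HippCulture (−0.38 ± 0.08, adjusted p = 6.2e-04). The groups of both genes were apart in both cell types. The R-type Cacna1e, with 25228 exon bases the longest of the alpha1 genes, went from 289, 264 and 283 CPM to 160.1, 157 and 148 in HippCulture (−0.85 ± 0.08, adjusted p = 2.8e-08). In Neuro2a it stood at 0.467, 1.17 and 0.982 CPM before and 0, 0.411 and 0 after irradiation, and the call there (−2.60 ± 0.91, adjusted p = 0.023) was lost without irradiated replicate 1 (adjusted p = 0.071) or 3 (0.081) or nonirradiated replicate 2 (0.069).

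The other alpha1 genes were called in a single cell type or in none. Cacna1i, a T-type subunit, went from 25.7, 18.9 and 22.1 CPM to 13.2, 11.9 and 8 in Neuro2a (−1.0 ± 0.18, adjusted p = 2.3e-04), and its groups overlapped in HippCulture (−0.12 ± 0.11, adjusted p = 0.38). The T-type Cacna1g and Cacna1h were not called in Neuro2a (adjusted p = 0.11 and 0.22) or HippCulture (0.43 and 0.39). With the replicate number as a block in the fit they were lower in Neuro2a (adjusted p = 0.029 and 0.037), and Cacna1g also passed without irradiated replicate 2 (−0.58, adjusted p = 0.03). Cacna1d, an L-type subunit, fell from 40.7, 35.8 and 36.4 CPM to 29.1, 22.8 and 25.2 in HippCulture (−0.54 ± 0.11, adjusted p = 2.9e-04). It was not called in Neuro2a (−1.58 ± 0.76, adjusted p = 0.087), and passed there without nonirradiated replicate 1 (−1.92, adjusted p = 0.035). Cacna1s, the muscle gene tested in Neuro2a alone, went from 1.24, 1.53 and 1.78 CPM to 0.558, 0 and 0.615 (−1.89 ± 0.58, adjusted p = 0.012).

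Cacna1a, of the P/Q-type channel, went from 91.3, 77.4 and 87.4 CPM to 73.5, 70.1 and 66.6 in HippCulture (−0.29 ± 0.09, adjusted p = 0.009). That call was lost without irradiated replicate 3 (−0.25, adjusted p = 0.06), nonirradiated replicate 1 (−0.21, adjusted p = 0.12) or nonirradiated replicate 3 (−0.22, adjusted p = 0.096). In Neuro2a it stood at 3.58, 3.64 and 4.73 CPM before and 5.21, 5.54 and 5.13 after irradiation and was not called (0.42 ± 0.22, adjusted p = 0.11; −0.77 with library totals).

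Among the accessory calcium channel subunits, Cacnb3 rose in both cell types. It went from 21.5, 26.9 and 23.9 CPM to 42.6, 49.3 and 46.8 in Neuro2a (0.94 ± 0.11, adjusted p = 6.5e-06; −0.26 with library totals) and from 66.7, 70.7 and 72.5 CPM to 107, 123 and 115 in HippCulture (0.72 ± 0.08, adjusted p = 4.8e-07; 0.16 with library totals). Cacnb1, of the same family, rose in HippCulture from 44, 54 and 47.1 CPM to 57.3, 63.2 and 62.5 (0.33 ± 0.09, adjusted p = 0.0054; −0.22 with library totals). In Neuro2a it did not pass (0.47 ± 0.20, adjusted p = 0.058), but passed with the replicate block (adjusted p = 0.0018) and without irradiated replicate 1 (0.0085) or nonirradiated replicate 3 (0.03). Cacnb4 went from 47.5, 47.9 and 49.8 CPM to 28.8, 21.3 and 26.2 in HippCulture (−0.91 ± 0.11, adjusted p = 4.5e-07) and shares 1433 of 8963 exon bases with another gene, and Cacnb2 fell from 17, 16.6 and 19.3 CPM to 12.5, 9.87 and 11.1 there (−0.65 ± 0.13). On the TMM scale the 4 beta subunits thus moved in both directions in HippCulture, while with library totals none of them was called higher.

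The alpha2delta and gamma subunits also gave calls in both directions in HippCulture. Cacna2d1 went from 129, 117 and 129 CPM to 70.0, 57.6 and 68.7 (−0.93 ± 0.09, adjusted p = 3.6e-08). Cacna2d3 went from 81.5, 82.2 and 84.1 CPM to 92.9, 103 and 101 (0.26 ± 0.08, adjusted p = 0.01; −0.29 with library totals), and missed the threshold without irradiated replicate 3 (0.24, adjusted p = 0.05 as rounded). Of the gamma subunits, several of which attend AMPA receptors rather than calcium channels, 1 of 6 was lower, Cacng2 (−0.70 ± 0.15), and 1 higher, Cacng4 (0.30 ± 0.10, adjusted p = 0.014; −0.26 with library totals, and an adjusted p of 0.052 without irradiated replicate 2). In Neuro2a 0 of 4 gamma subunits were called.

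The Kv pore subunits were the largest group, and in HippCulture 15 of 36 tested were lower and 4 higher (median −0.27), while in Neuro2a 2 of 15 were lower and 0 higher (median −0.46). Kcnb2, of the delayed rectifiers, went from 38.3, 27.7 and 34.9 CPM to 19.5, 16.9 and 14.2 in HippCulture (−1.0 ± 0.14), the most negative of the Kv pore calls there. Kcns2, a silent subunit, was lower in both, with −1.37 ± 0.41 (adjusted p = 0.011) in Neuro2a and −0.54 ± 0.16 (adjusted p = 0.0067) in HippCulture. Kcnd2, the pore of the dendritic A-type current, went from 48.6, 46.4 and 50.7 CPM to 26.9, 19.9 and 29.7 (−0.91 ± 0.11), and Kcna1, of axonal low-threshold channels, from 27, 26.7 and 27.1 CPM to 15.1, 16.1 and 15 (−0.81 ± 0.11), both in HippCulture. Kcna2 (−0.52), Kcna4 (−0.56), Kcnd3 (−0.43) and Kcnh7 (−0.80) were lower there as well.

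The M current genes Kcnq5 and Kcnq3 were lower in HippCulture. Kcnq5 went from 94.4, 98.4 and 98.5 CPM to 67.1, 58.8 and 57.4 (−0.67 ± 0.09) and Kcnq3 from 57.3, 57.6 and 61.7 CPM to 42.5, 38.1 and 35.5 (−0.61 ± 0.09). In Neuro2a Kcnq5 (−0.77 ± 0.33, adjusted p = 0.057) did not pass, and it passed with the replicate block (adjusted p = 0.0012), without irradiated replicate 1 (0.0043) or without nonirradiated replicate 2 (0.043). Kcna6, the highest Kv pore mRNA of HippCulture, stood at 88.1, 98.8 and 95.4 CPM before and 78.6, 89 and 83.6 after irradiation and was not called (−0.17 ± 0.08, adjusted p = 0.092), but passed without irradiated replicate 2 (0.045).

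Among the 4 Kv pore mRNAs higher in HippCulture were Kcns1, Kcng2 and Kcnh3. Kcns1, a silent subunit, went from 4.74, 6.93 and 4.57 CPM to 9.95, 12.1 and 10.7 (1.00 ± 0.18, adjusted p = 9.9e-05; 0.45 with library totals). Kcnh3, of the ELK channels, went from 50.2, 55.1 and 56.3 CPM to 73.5, 92 and 78.9 (0.59 ± 0.09; 0.03 with library totals), and Kcng2 gave 0.70 ± 0.17. Of the fast delayed rectifiers, Kcnc1 (−0.60 ± 0.10) and Kcnc2 (−0.79 ± 0.13) were lower. Kcnh2, the highest Kv pore mRNA of Neuro2a, stood at 31, 31.3 and 34.1 CPM before and 30.5, 32.4 and 33 after irradiation (−0.01 ± 0.10, adjusted p = 0.97), so that its groups overlapped on the TMM scale, and with library totals it gave −1.20 (adjusted p = 1.1e-07).

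Of the Kv auxiliary subunits, 5 of 9 were higher and 2 lower in HippCulture, and 2 of 8 each way in Neuro2a. Kcnip3, a KChIP also known as the calcium-binding repressor DREAM, went from 26.4, 24.4 and 23.8 CPM to 40.8, 51.6 and 50.5 in HippCulture (0.93 ± 0.11, adjusted p = 3.7e-07; 0.38 with library totals). In Neuro2a it went from 6.45, 5.03 and 4.37 CPM to 7.26, 8.21 and 11.1 (0.73 ± 0.22, adjusted p = 0.0091; −0.46 with library totals), a call lost without irradiated replicate 3 (0.53, adjusted p = 0.072). Kcnip1 (0.59 ± 0.12) and Kcnip2 (0.58 ± 0.11), KChIPs of the A-type channels, rose in HippCulture and gave 0.04 and 0.03 with library totals. Kcnip4 was lower in Neuro2a, from 0.855, 0.947 and 0.892 CPM to 0.186, 0.205 and 0 (−2.64 ± 0.73, adjusted p = 0.0061), and gave 0.03 ± 0.23 in HippCulture (adjusted p = 0.93). The 4 KChIP genes thus did not share 1 direction on the TMM scale.

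Of the Kvbeta subunits, Kcnab2 went from 30.6, 30.4 and 32.8 CPM to 35.3, 39.6 and 41.8 in Neuro2a (0.32 ± 0.10, adjusted p = 0.016) and from 37.3, 38.9 and 34.1 CPM to 41.2, 58.4 and 46.1 in HippCulture (0.39 ± 0.11, adjusted p = 0.0066). With library totals it turned to −0.88 and −0.18. The call in Neuro2a was lost without irradiated replicate 2 (0.057) or 3 (0.083) or nonirradiated replicate 2 (0.058, all adjusted p), and that in HippCulture without irradiated replicate 2 (0.25, adjusted p = 0.051). Kcnab1, which speeds inactivation of Kv channels, went from 2.57, 3.06 and 2.86 CPM to 0.744, 0.821 and 0.41 in Neuro2a (−2.07 ± 0.38, adjusted p = 3.0e-04) and from 24, 20.2 and 23.7 CPM to 17.6, 15.9 and 19.1 in HippCulture (−0.36 ± 0.12, adjusted p = 0.018). The latter call was lost without irradiated replicate 2 (0.061), nonirradiated replicate 1 (0.11) or nonirradiated replicate 3 (0.12). Kcnab3 (0.94 ± 0.31; 0.41 with library totals) was called higher in HippCulture and Kcnrg (−1.54 ± 0.46) lower, at under 3 CPM. Both calls were lost without irradiated replicate 1 (adjusted p = 0.055 and 0.051), that on Kcnab3 also without nonirradiated replicate 1 (0.052) and that on Kcnrg without nonirradiated replicate 3 (0.052).

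The calcium-activated potassium channels gave calls in both directions. Kcnma1, the pore of the large-conductance BK channel, went from 164, 150.4 and 161 CPM to 97.5, 80.0 and 85.3 in HippCulture (−0.85 ± 0.09, adjusted p = 8.3e-08). Kcnmb4, its neuronal beta subunit, rose from 13.2, 16.1 and 16.1 CPM to 26.7, 39.3 and 32.4 in HippCulture (1.10 ± 0.13, adjusted p = 9.1e-07; 0.55 with library totals) and from 5.21, 3.5 and 3.75 CPM to 9.49, 6.98 and 8 in Neuro2a (0.98 ± 0.22, adjusted p = 0.0014; −0.21 with library totals). It shares 1048 of 3324 exon bases with antisense genes, and reads of these cannot be told apart where strand was not used. Kcnmb2, another beta subunit, fell in Neuro2a from 1.71, 0.801 and 1.43 CPM to 0.186, 0 and 0.41 (−2.63 ± 0.72, adjusted p = 0.0061). Kcnt2, a sodium-activated channel, fell in HippCulture from 19.8, 23.5 and 19.4 CPM to 13.8, 10.9 and 15 (−0.64 ± 0.14). Its relative Kcnt1 was not called in Neuro2a (−0.67 ± 0.32, adjusted p = 0.083) or HippCulture (−0.18 ± 0.12, adjusted p = 0.23). In Neuro2a it passed as lower with the replicate block (adjusted p = 1.8e-04), with library totals (6.5e-05), with every gene of at least 1 count tested (4.6e-04), and without irradiated replicate 3 (0.027) or nonirradiated replicate 1 (0.031). In HippCulture it passed with library totals (2.2e-04) and without irradiated replicate 1 (0.046).

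The small-conductance channels Kcnn3 and Kcnn1, pores of one family, moved in opposite directions on the TMM scale. Kcnn3 fell from 17.5, 19.6 and 19.7 CPM to 5.39, 7.6 and 5.33 in Neuro2a (−1.63 ± 0.16, adjusted p = 1.1e-06) and from 21.9, 19 and 21.8 CPM to 16.1, 14.1 and 12.1 in HippCulture (−0.57 ± 0.13, adjusted p = 9.8e-04). Kcnn1 rose from 12.1, 13.2 and 13 CPM to 21, 27.6 and 20.5 in HippCulture (0.83 ± 0.13, adjusted p = 2.3e-05; 0.28 with library totals) and from 2.18, 2.48 and 2.5 CPM to 2.98, 5.13 and 6.15 in Neuro2a (0.98 ± 0.28, adjusted p = 0.0078; −0.21 with library totals). The call on Kcnn1 in Neuro2a was lost without irradiated replicate 3 (0.74, adjusted p = 0.059). The groups of both genes were apart in both cell types.

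Of the inward rectifiers, 3 of 10 were lower and 3 higher in HippCulture. Kcnj3, a G protein-gated subunit, fell from 56.5, 49.4 and 62.7 CPM to 31.3, 31 and 34.2 (−0.80 ± 0.10), and shares 1621 of 5215 exon bases with another gene. Its partners Kcnj6 (0.70 ± 0.19) and Kcnj9 (0.46 ± 0.13) rose on the TMM scale and gave 0.15 and −0.09 with library totals, and Kcnj9 missed the threshold without irradiated replicate 3 (0.37, adjusted p = 0.06). Kcnj4 rose from 22.4, 36 and 29.4 CPM to 38.1, 49.1 and 42.6 (0.56 ± 0.14, adjusted p = 0.0018; −0.00 with library totals). Kcnj2, a strong inward rectifier, fell from 2.61, 3.93 and 2.68 CPM to 1.56, 1.21 and 0.904 (−1.32 ± 0.33, adjusted p = 0.0021). Kcnj13 was called lower (−2.76 ± 1.07, adjusted p = 0.036) at 0.581, 0.517 and 0.199 CPM before and 0, 0.201 and 0 after irradiation; its groups overlapped, it shares 623 of 1270 exon bases with Gigyf2, and the call was lost without irradiated replicate 1 (adjusted p = 0.12) or 3 (0.14). Kcnj12 was the only inward rectifier of 5 called in Neuro2a, rising from 2.18, 2.77 and 3.03 CPM to 3.35, 7.19 and 4.1 (0.87 ± 0.30, adjusted p = 0.021; −0.32 with library totals), and it missed the threshold without irradiated replicate 2 (0.48, adjusted p = 0.2) or nonirradiated replicate 1 (0.74, adjusted p = 0.057).

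Of the K2P channels, 2 of 10 were called each way in HippCulture. Kcnk9, an acid-sensitive leak channel, fell from 40.8, 43.7 and 41 CPM to 18.8, 15.9 and 17.9 (−1.25 ± 0.11, adjusted p = 6.8e-09), and Kcnk10 from 108, 105 and 115 CPM to 58.7, 68.3 and 61.1 (−0.81 ± 0.09). In Neuro2a Kcnk9 stood at 0.311, 0.437 and 0.625 CPM before and 0, 0 and 0.205 after irradiation, and its call (−2.53 ± 1.04, adjusted p = 0.048) was lost with the replicate block (0.077), without irradiated replicate 1 (0.13) or 2 (0.13), and without nonirradiated replicate 2 (0.078) or 3 (0.12). Its relative Kcnk3 fell in Neuro2a from 6.84, 7.21 and 6.96 CPM to 2.79, 4.52 and 4.1 (−0.89 ± 0.21, adjusted p = 0.0026) and was not called in HippCulture (−0.42 ± 0.22, adjusted p = 0.12; 0.036 without irradiated replicate 1). Kcnk1 (0.40 ± 0.12) and Kcnk12 (0.56 ± 0.18) were called higher in HippCulture, and with library totals they gave −0.16 and 0.01. Both calls were lost without irradiated replicate 2 (adjusted p = 0.058 and 0.078), and that on Kcnk12, whose groups overlapped, also without irradiated replicate 3 (0.07).

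The effect of irradiation was compared between the cell types in a single fit of all 12 samples. Of 59 members tested, 9 were more negative in Neuro2a and 1, Cacna1a, more positive, beside 16.1% and 8.39% of 14973 genes. The median difference (Neuro2a minus HippCulture) was −0.27 for members and −0.14 for all genes. Cacna1b (−0.47 ± 0.14, adjusted p = 0.015), Cacna1c (−0.69 ± 0.18, adjusted p = 0.0093), Cacna1i (−0.89 ± 0.21, adjusted p = 0.0041), Kcnn3 (−1.07 ± 0.22, adjusted p = 0.0018) and Kcnab1 (−1.72 ± 0.38, adjusted p = 0.003) were more negative in Neuro2a, and these 5 calls held without any 1 of the 12 libraries. Scn1a, Scn2a, Scn3a and Scn8a gave −0.36, −0.21, −0.23 and −0.18 and were not called (adjusted p = 0.53, 0.45, 0.5 and 0.41). With library totals, which moved the median gene by −0.64, these 4 gave −0.99, −0.85, −0.86 and −0.81 and passed.

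The other differences were lost without single libraries. Scn9a differed by −1.81 ± 0.56 (adjusted p = 0.022), which went to −0.77 (adjusted p = 0.48) without HippCulture irradiated replicate 1. Kcnip4 (−2.68 ± 0.81, adjusted p = 0.02) was lost without Neuro2a irradiated replicate 3 (−2.17, adjusted p = 0.076). Cacna1a (0.70 ± 0.21, adjusted p = 0.021) was lost without Neuro2a irradiated replicate 2 (0.06) or nonirradiated replicate 1 (0.052) or 2 (0.051). Kcnmb2 (−2.31 ± 0.82, adjusted p = 0.044) passed, among the 12 fits with 1 library left out, in those without HippCulture nonirradiated replicate 1 or 3 or Neuro2a irradiated replicate 3 or nonirradiated replicate 2, and its adjusted p was 0.14 without Neuro2a irradiated replicate 2. Kcnj9 (−0.75 ± 0.27, adjusted p = 0.05 as rounded) passed, among the same fits, in those without Neuro2a irradiated replicate 3 or nonirradiated replicate 3, and its adjusted p was 0.16 without Neuro2a irradiated replicate 1. With the replicate block Cacnb4 (1.58, adjusted p = 0.048) was called as well.

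**Figure D4:**
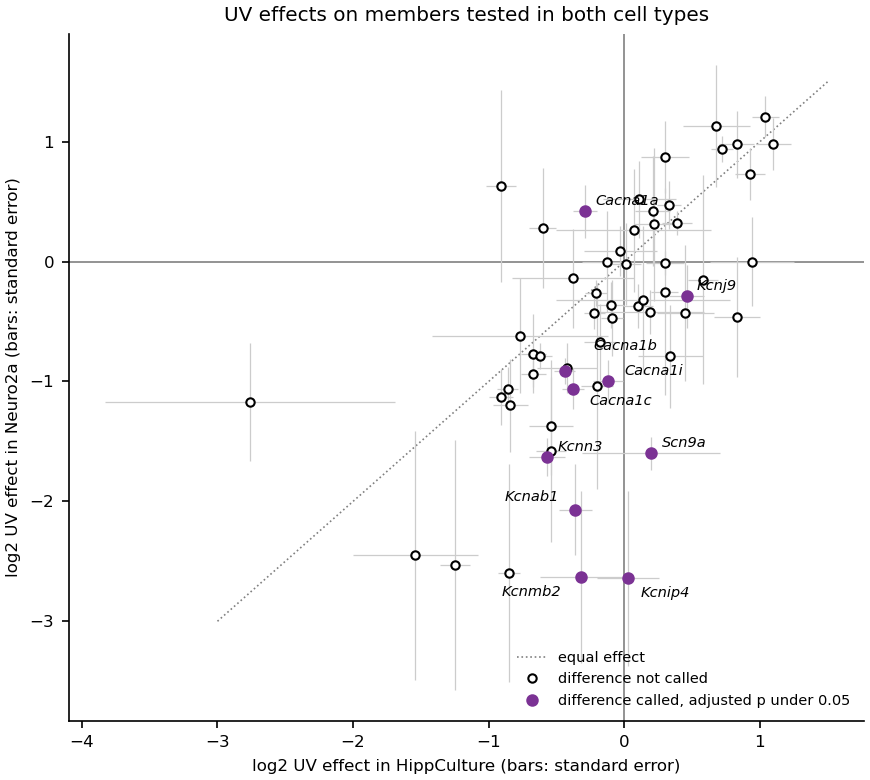
Log2 UV effect in Neuro2a (vertical) against HippCulture (horizontal) for the 59 members tested in both, with standard errors, a dotted line of equal effect, and filled points where the difference between the cell types had an adjusted p under 0.05. Of the 10 filled points, 9 lie below the line and Cacna1a lies above it.

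Across members the UV effect varied with the exon bases of the gene, as it did across all coding genes. Exon bases cover all annotated exons of a gene and are not the length of a single mRNA. Members called lower had a median of 10451 exon bases in Neuro2a and 9942 in HippCulture, those called higher 3546 and 3656, and those not called 4607 and 4093. Of members with at least 10000 exon bases, 10 of 14 were lower in Neuro2a and 19 of 21 in HippCulture, and 0 were higher in either. Under 3000 exon bases 0 of 11 were lower and 2 higher in Neuro2a, and 2 of 18 and 7 in HippCulture. Over protein-coding genes of every length, 31.5% were called lower and 33.3% higher in Neuro2a, and 24.9% and 30.9% in HippCulture. The share called among all coding genes of each length class was not counted. Spearman's rho between exon length and log2 fold change was −0.37 over 68 members in Neuro2a and −0.46 over 106 in HippCulture, and −0.53 and −0.51 over all protein-coding genes tested. For the coding sequence rho was −0.19 and −0.28 over members, and −0.42 and −0.34 over all protein-coding genes. For the 3′ UTR it was −0.34 and −0.31 over members, and −0.44 and −0.46 over all protein-coding genes. Members come from the same libraries, so this is a description across genes. Beside coding genes of the same length class, members of at least 10000 exon bases had medians of −1.09 in Neuro2a and −0.65 in HippCulture against −0.93 and −0.44, and members under 3000 had 0.00 and 0.34 against 0.79 and 0.59. With library totals these medians shift with the median gene, by −1.18 and −0.54.

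**Figure D5:**
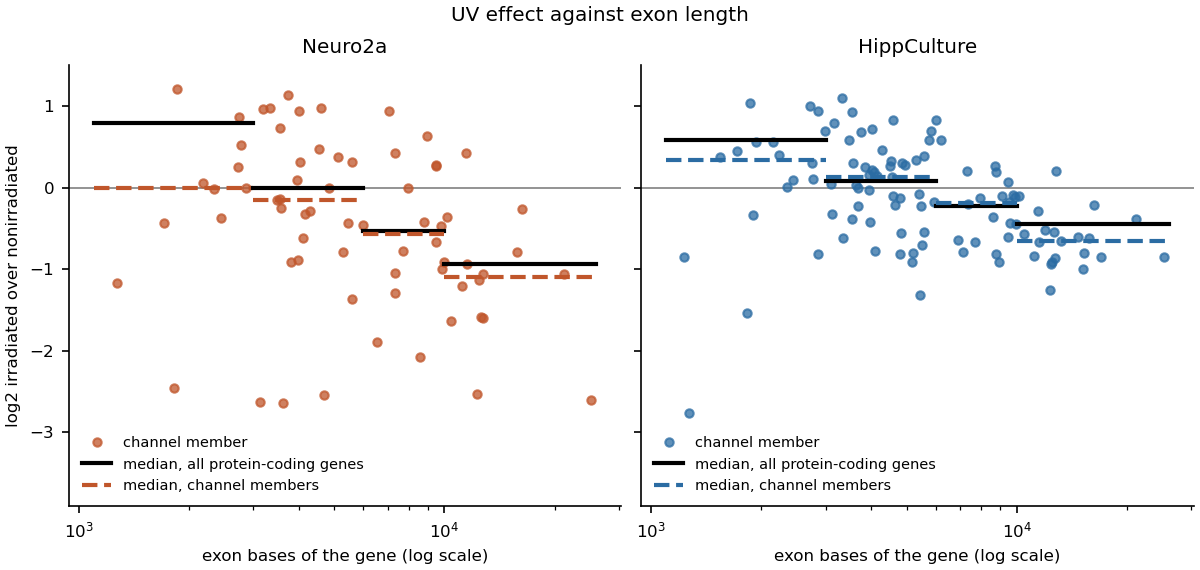
Log2 UV effect of each tested channel member against its exon bases (log scale) in Neuro2a and HippCulture, with the medians of members (dashed) and of all protein-coding genes (black) in 4 length classes bounded at 3000, 6000 and 10000 bases. In both cell types the medians fall from the shortest to the longest class, for members and for all coding genes.

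The Pumilio letters were counted in the members by call. In Neuro2a 9 of 19 members called lower held the letters, 0 of 7 called higher and 5 of 42 not called, with median 3′ UTRs of 2621, 663 and 1217 bases. These shares of 47.4%, 0% and 11.9% stand beside 38%, 11.4% and 20% of all protein-coding genes called lower, called higher and not called. The 9 include the 5 sodium channel alpha genes whose stretches were shown because of these calls. The share is therefore no separate support for them. Scn1a, Scn2a, Scn3a and Scn8a are also among the members called lower in HippCulture. In HippCulture 18 of 39 called lower held them, 6 of 22 called higher and 8 of 45 not called, with medians of 2621, 917 and 1276 bases. The shares there were 46.2%, 27.3% and 17.8%. The shares over all protein-coding genes in HippCulture were 44.1% of those called lower, 11.3% of those called higher and 22.9% of those not called. Over all protein-coding genes the median 3′ UTR was 1845, 453 and 910 bases in Neuro2a and 2251, 490 and 1010 in HippCulture, in the same order, and the part of length in these counts was not tested. For Cacna1c, Cacna1d and Cacnb1 the transcript used has a 3′ UTR of 3, 9 and 3 bases, which leaves little or no room for a match. The same holds for Kcnma1, Kcnk2 and Kcnk16, with 3 bases each, and Kcna7, with 6. Kcnma1, called lower in HippCulture, counts there as a member without the letters.

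Genes for proteins that anchor or modulate these channels and for related channels made a list of 27. Over all genes tested, 33.0% were called lower and 28.9% higher in Neuro2a, and 25.9% and 26.1% in HippCulture. Of the list, 10 of 22 tested were lower and 2 higher in Neuro2a (median −0.46). In HippCulture 18 of 27 were lower and 1 higher (median −0.30). Fgf14, an intracellular partner of sodium channels, had the most negative value in both, with −2.05 ± 0.39 (adjusted p = 3.9e-04) in Neuro2a and −1.05 ± 0.14 (adjusted p = 2.6e-06) in HippCulture. Ank3, the ankyrin that holds sodium and M current channels at the initial segment, was lower in both (−0.39 ± 0.12 and −0.24 ± 0.08). Of the HCN pacemaker channels, Hcn2 rose in both (0.85 ± 0.25 and 0.67 ± 0.10) on the TMM scale and Hcn4 fell in both (−0.81 ± 0.16 and −0.33 ± 0.13). Stac, an adaptor of L-type channels, was the other gene higher in Neuro2a (1.16 ± 0.16).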

How the data were processed

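Of 24 samples in the series, the 12 mouse samples were used, and the 12 human samples were not used here. The authors deposited raw counts per gene, made per the file headers with featureCounts 1.6.1 on GENCODE M17 exons, with reads that overlap several genes counted for each and no strand setting. The submitters' processing notes name TopHat2 2.1.1 and mm10. The labels and the methods name different library kits, stranded and unstranded, so antisense reads may be included.

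Symbols, gene classes, coding sequences and 3′ UTRs came from GENCODE M21 (99.82% of 53715 gene identifiers matched). Exon lengths and overlaps came from the exons listed in the deposited counts. Counts were tested with edgeR 4.0.16 (R 4.3.3), with TMM scaling, the quasi-likelihood test and Benjamini-Hochberg adjustment over all genes with a mean of at least 0.5 CPM in the nonirradiated samples, and a call was an adjusted p under 0.05. CPM values are TMM-scaled, and RPKM divides by exon bases. Per gene, 3 samples against 3 allow an exact permutation p of 0.1 at the smallest, so no single-gene permutation test was used. Alternatives were DESeq2 1.42.0 and its size factors, library totals alone, other filters on low counts, members without shared exon bases, a replicate block and leaving out each sample. On simulated counts with 100 genes changed by a log2 of 1, the share recovered was 100% (14263 genes) in Neuro2a, 99% (15629) in HippCulture, 85% (16102) for the difference between cell types and 99% (17019) between nonirradiated cell types. The share of calls on unchanged genes was 5.21%, 1.97%, 4.17% and 6.13% in the same order. Few genes were changed, all well above the 0.5 CPM limit, and all genes had a common spread. The recovery therefore does not cover members near that limit or samples in which most genes are called. Tables used Python 3.11.15 with pandas 2.3.3, numpy 2.4.6, scipy 1.17.1 and matplotlib 3.10.9.

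The labels' replicate numbers were checked for pairing. Deviations from the group means of same-numbered nonirradiated and irradiated samples correlated at 0.291, 0.104 and 0.146 in Neuro2a and at 0.137, 0.073 and 0.057 in HippCulture. Differently numbered samples of Neuro2a reached 0.099. By a chosen limit of 0.1, the numbers were taken to pair the samples of Neuro2a and not those of HippCulture. The main fits nonetheless took the samples of both as unpaired, and the replicate block is given as an alternative. Replicates of a group differed by more than sampling noise (chi-square of 3.07 to 24.1 per gene).

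The members, marker and partner lists were chosen with earlier results of these data known. Named members were the 2 highest per role and cell type, the 6 most negative and 6 most positive non-overlapping UV calls, the 6 largest called differences each way between cell types and in UV effect, and the 10 highest per cell type. Further members were named after their values were seen, to complete families. Some members count in the totals and are not reported here by name.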

Additional observations from a re-analysis of the deposited data

Results flagged for a closer look

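The UV effect differed between the cell types for 10 members, by the test of the difference itself (edgeR, one fit over 12 samples, log2 UV effect in Neuro2a minus that in HippCulture). Cacna1b (−0.47), Cacna1c (−0.69), Cacna1i (−0.89), Kcnab1 (−1.72) and Kcnn3 (−1.07) were more negative in Neuro2a and kept their call with each of the 12 libraries left out in turn. Scn9a (−1.81), Kcnip4 (−2.68), Kcnmb2 (−2.31) and Kcnj9 (−0.75) were more negative in Neuro2a and lost their call without at least 1 library. Cacna1a (0.70) was more positive in Neuro2a, lost its call without Neuro2a irradiated replicate 2 or nonirradiated replicate 1 or 2, and gave 0.07 with library totals alone.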

How the results depend on the processing

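The scaling moved the UV results most. With library totals alone, members called lower and higher were 47 and 0 in Neuro2a (median −1.57) and 58 and 3 in HippCulture (median −0.67), the difference between cell types was called more negative for 32 members and more positive for 0 (median −0.91), and the median between nonirradiated cell types was 4.0. Signs turned under library totals in Neuro2a for Cacna1a (−0.77), Cacnb1 (−0.73), Cacnb3 (−0.26), Kcnab2 (−0.88), Kcnab3 (−1.18), Kcnh4 (−1.10), Kcnip3 (−0.46), Kcnj12 (−0.32), Kcnmb4 (−0.21) and Kcnn1 (−0.21), and in HippCulture for Cacna2d3 (−0.29), Cacnb1 (−0.22), Cacng4 (−0.26), Cacng7 (−0.45), Cacng8 (−0.54), Kcnab2 (−0.18), Kcnj4 (−0.00), Kcnj9 (−0.09) and Kcnk1 (−0.16). With every gene of at least 1 count the median was −0.86 in Neuro2a (128 members), −0.62 for the difference (134, none more positive: 0) and 2.57 between nonirradiated cell types (134). With at least 10 counts in every sample the median was −0.20 in HippCulture, and between cell types 4 members were lower and 33 higher (median 1.65, 42 tested). With the mean CPM taken over all samples the difference was more positive for 0 members (median −0.61, 108 tested). With 0.5 CPM required in both cell types, 6 were lower and 45 higher in HippCulture (median 1.85, 59 tested). Without members that share exon bases, 4 of 45 were higher in Neuro2a, 25 of 72 lower and 12 higher in HippCulture, 5 of 37 more negative and 0 more positive in the difference, and the median between cell types was 4.36 (76 tested). These filters change which members are tested. The median between cell types was 4.21 with DESeq2 size factors and 4.28 with the DESeq2 test, which called 5 differences negative and 2 positive, and the cause was not tested. The DESeq2 test also ended the calls on Kcnab2 (adjusted p = 0.089) and Kcnk9 (0.11) in Neuro2a and on Cacng4 (0.053), Kcnab3 (0.079) and Kcnj13 (0.11) in HippCulture.

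With the replicate block 24 members were lower and 9 higher in Neuro2a, 40 and 24 in HippCulture, the difference was more negative for 10 and more positive for 2, and 12 were lower and 91 higher in HippCulture at baseline. In Neuro2a the calls added by the block included Kcnq5, Kcnt1, Kcnu1, Cacna1g, Cacnb1 and Cacna1h, and the call it lost was Kcnk9. In HippCulture, where the numbers were not taken to pair the samples although each correlated best with its own number, it added Kcng1, Kcna6 and Kcns3.

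Leaving out each sample in turn gave 17 to 23 members lower and 4 to 10 higher in Neuro2a (4 without irradiated replicate 3; median −0.49 to −0.31), and 34 to 39 and 18 to 25 in HippCulture (median −0.18 to −0.09). The difference was more negative for 6 to 9 and more positive for 0 to 2 (0 without Neuro2a irradiated replicate 2 or nonirradiated replicate 1 or 2, 2 without its irradiated replicate 1; median −0.37 to −0.12). At baseline 9 to 12 were lower and 89 to 91 higher in HippCulture (median 3.89 to 4.37). Depth limits members near 0.5 CPM, whose standard errors reached 1.07 on the log2 scale (Kcnj13 in HippCulture).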
